A study of Capra hircus with 20 samples.

Results

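The miR-99, miR-100 and miR-125 family was followed in the hypothalamus of Jining grey goats at 4 ages after birth. Its members are the rows of a small RNA sequencing table named miR-99a, miR-99b, miR-100, miR-125a or miR-125b, with the 5p or 3p arm. This gave 10 of 683 miRNA rows, both arms of each of the 5 names, such as chi-miR-99a-5p, chi-miR-100-5p, chi-miR-125a-5p and chi-miR-125b-5p, where chi stands for goat. The members were chosen by name and not by their values. Whole hypothalamus was taken on days 1, 60, 120 and 180, from 5 goats at each age, making 20 libraries. No treatment, mutation or strain difference separates the groups, and all goats were kept alike with free food and water, per the series' design text. Neither the sex of the goats nor the time of day or season of sampling is given in the sources used here. Whole tissue mixes neurons, glia, vessels and blood, so fewer cells of a type and less of a miRNA per cell cannot be told apart.

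A miRNA guides a silencing complex to messenger RNAs that pair with its seed, the short stretch near its 5′ end. miR-99a, miR-99b and miR-100 share 1 seed and are known to repress the growth kinase mTOR. miR-125a and miR-125b share another seed, are the mammalian counterparts of the worm timing miRNA lin-4, and repress LIN28, a protein that blocks the maturation of let-7. In mammals the genes lie in clusters that also hold a let-7 gene: miR-99a with let-7c and miR-125b, miR-100 with let-7a and miR-125b, and miR-99b with let-7e and miR-125a. In RefSeq's goat gene table (assembly ARS1.2) MIR125B, MIRLET7C and MIR99A are neighbours in that order, and MIR99B is the neighbour of MIRLET7E. MIR100 has an entry with no let-7 gene beside it, and MIR125A has no entry. From each hairpin the 5p arm of these miRNAs is the one mainly loaded into the silencing complex, and the 3p arm is mostly discarded. The 5p arms of miR-99a and miR-100 are nearly identical, and those of miR-125a and miR-125b are alike to a lesser degree. How reads were divided within each pair depends on the authors' counting, which is not given in the sources used here. Reads of miR-125b and let-7a can also come from more than 1 gene.

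Levels are in RPM, meaning that each library's miRNA reads were brought to the same total. Depth ran from 4018002 to 8324928 miRNA reads, so that 3 reads, the floor used here, are worth 0.360 to 0.747 RPM. Replicate 2 of day 1 stood apart. It had the lowest depth, and its Spearman correlation to the other 19 had a median of 0.891, where the second lowest library, replicate 3 of day 60, had 0.916. It also carried the highest level among all 20 libraries for 8 of the 10 members, against 35.5% of the 414 tested miRNAs. The neuronal miR-124a was present in every library at 219 to 2004 RPM. Some results that rest on replicate 2 of day 1 are given with and without it. The others are given only with it, and how far they depend on it is not shown.

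The family made up 10.6% of all miRNA reads on average (9.77% without replicate 2 of day 1), and miR-100-5p alone took 4.91%. Its share averaged 12.6% ± 7.50, 9.22% ± 2.56, 10.1% ± 3.06 and 10.5% ± 1.97 (SD, n = 5) on days 1, 60, 120 and 180. Replicate 2 of day 1 held 26.0%, and the other 19 libraries held 5.25% to 12.9%. Without it the day-1 share was 9.23% ± 0.554 (SD, n = 4), inside the range of the later ages. By seed, the 5p arms of miR-99a, miR-99b and miR-100 together took 7.97% of reads and those of miR-125a and miR-125b took 2.52%. Without replicate 2 of day 1 these shares were 7.55% and 2.13%. All 3p arms together took 0.0930%.

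miR-100-5p was the highest member in every library and the sixth most abundant miRNA of the table by mean level, with 49140 ± 15675 RPM (SD, n = 20). On day 1 the 5 goats measured 40214, 69487, 58800, 42515 and 42510 RPM. On day 60 they measured 26545, 51743, 35566, 26938 and 47782 RPM. On day 120 the values were 27975, 44629, 66575, 67078 and 54915 RPM, and on day 180 they were 76704, 59195, 41633, 31686 and 70310 RPM. The 4 ages overlapped throughout, and the highest library was 2.89 times the lowest, the narrowest range of any member. Replicate 2 of day 1 was here the third highest of the 20 libraries.

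miR-99a-5p came next, with 18743 ± 8568 RPM (SD, n = 20). On day 1 it measured 19324, 46336, 20863, 22339 and 22275 RPM. On day 60 it measured 11653, 23511, 30836, 12442 and 11160 RPM. On day 120 the values were 7700, 17635, 18894, 17591 and 10728 RPM, and on day 180 they were 22824, 11830, 14698, 17428 and 14802 RPM. All 5 day-120 libraries lay below all 5 day-1 libraries, while days 60 and 180 each overlapped day 1. Apart from replicate 2 the day-1 libraries were close together, at 21200 ± 1424 RPM (SD, n = 4).

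**Figure D1:**
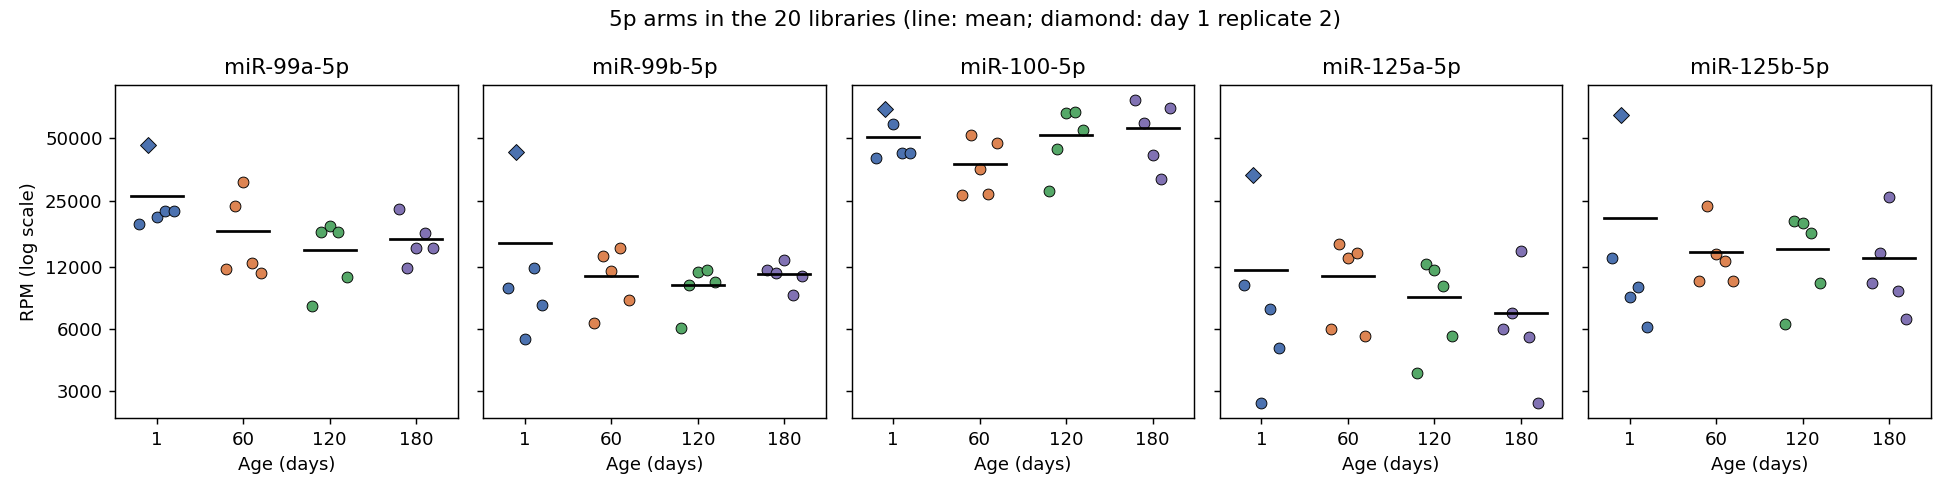
Levels of the 5p arms of the 5 names in RPM (log scale) against age in days; each point is 1 library, the line is the mean of 5, and the diamond is replicate 2 of day 1. miR-100-5p lies between 26545 and 76704 RPM at every age, and the diamond is the highest point of the other 4 panels.

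miR-125b-5p averaged 15615 ± 12931 RPM (SD, n = 20), and its spread was mostly 1 library. The day-1 goats measured 13227, 65069, 8569, 9604 and 6147 RPM. The day-60 goats measured 10242, 23466, 13786, 12714 and 10260 RPM. On day 120 the values were 6349, 19878, 19432, 17517 and 10008 RPM, and on day 180 they were 10047, 13926, 26171, 9166 and 6732 RPM. Replicate 2 of day 1 was 2.49 times the next highest library, and all later ages overlapped the remaining day-1 libraries.

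miR-125a-5p, which carries the same seed, had a mean of 9539 ± 6888 RPM (SD, n = 20). It ranged from 2636 to 33242 RPM on day 1 with a median of 7496. The ranges were 5566 to 15517 RPM on day 60, 3663 to 12349 RPM on day 120 and 2624 to 14353 RPM on day 180. No age was clear of another. miR-99b-5p had a mean of 11797 ± 7789 RPM (SD, n = 20) and ranged from 5365 to 43164 RPM on day 1, the top value again being replicate 2. Its later libraries lay within 6049 to 14774 RPM at all 3 ages.

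By mean level the order was miR-100-5p, miR-99a-5p, miR-125b-5p, miR-99b-5p, miR-125a-5p, miR-125b-3p, miR-99b-3p, miR-125a-3p, miR-99a-3p and miR-100-3p. miR-100-5p exceeded miR-99a-5p in 20 of 20 libraries. The next neighbours did not keep their order: miR-99a-5p exceeded miR-125b-5p in 14 of 20 libraries, miR-125b-5p exceeded miR-99b-5p in 14, and miR-99b-5p exceeded miR-125a-5p in 14. Every 5p arm lay above every 3p arm on average, and miR-125a-5p exceeded miR-125b-3p in 20 of 20 libraries. Among the 3p arms the neighbours kept their order in 19 or 20 of the 20 libraries. These levels depend on how well each small RNA is ligated and amplified, which differs between sequences.

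The 3p arms spanned a wide range, and their rank was not that of their 5p partners. miR-125b-3p was the highest, with 674 ± 222 RPM (SD, n = 20), although its 5p arm ranked below those of miR-100 and miR-99a. miR-100-3p, the partner of the most abundant member, averaged 1.48 ± 0.958 RPM. It had no read in 1 library, replicate 4 of day 60, where the floor was 0.480 RPM, and reached 1 RPM in 13 of 20. The median ratio of 5p to 3p within a library was 19.2 for miR-125b, 57.2 for miR-99b, 333 for miR-125a, 2035 for miR-99a and 34893 for miR-100. The last was taken over the 19 libraries with a miR-100-3p read.

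miR-99a-3p, the arm mostly discarded from the miR-99a hairpin, fell between day 1 and day 60, the single change called among the members by limma. On day 1 it measured 14.8, 53.3, 25.1, 9.38 and 12.1 RPM. On day 60 it measured 7.02, 3.04, 1.15, 0.160 and 8.71 RPM. On day 120 the values were 5.14, 7.93, 7.93, 5.76 and 3.37 RPM, and on day 180 they were 2.29, 6.44, 9.38, 3.52 and 10.2 RPM. Days 60 and 120 lay wholly below day 1, and day 180 overlapped it by its highest library. The value of 0.160 RPM in replicate 4 of day 60 is a single read, below the floor of 3.

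From day 1 to day 60 the log2 fold change of miR-99a-3p was -2.38 on the log2(RPM + 1) scale (SE 0.56, 95% interval -3.53 to -1.24). Its adjusted p was 0.0188 by limma with Benjamini-Hochberg adjustment over 414 miRNAs. The call rested on few libraries. It was lost, by limma, without replicate 2 of day 1 (-2.02, adjusted p = 0.0519), without replicate 3 of day 1 (-2.28, adjusted p = 0.0649) and without replicate 4 of day 60 (-1.96, adjusted p = 0.0753). With only the libraries of days 1 and 60 in the limma fit it was lost as well (adjusted p = 0.126). With a pseudocount of 5 the change was -1.53 and the call was kept. Of the 31 alternative fits 27 kept the call, edgeR and DESeq2 among them.

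At the later ages the changes of miR-99a-3p from day 1 were smaller in size and did not pass; their difference from the day-60 change was not called either (adjusted p = 0.913 for day 120 against day 60 and 0.860 for day 180 against day 60, limma). Its log2 fold change was -1.54 on day 120 (SE 0.56, limma adjusted p = 0.114) and -1.58 on day 180 (SE 0.56, limma adjusted p = 0.116). On the reads recovered from the table DESeq2 called both, with adjusted p-values of 0.0113 and 0.0391, and median-of-ratios scaling, which called 8.7% of miRNAs on day 120, called that change with 0.0428. limma's F test over all ages gave miR-99a-3p an adjusted p of 0.0710.

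miR-99b-3p, the discarded arm of the miR-99b hairpin, was also highest on day 1, and its changes did not pass limma's threshold. The day-1 goats measured 261, 797, 181, 398 and 228 RPM. The day-60 goats measured 118, 162, 152, 195 and 143 RPM. On day 120 the values were 186, 141, 140, 149 and 148 RPM, and on day 180 they were 204, 161, 128, 185 and 210 RPM. The 181 RPM of replicate 3 of day 1 fell inside each later range, and the other 4 day-1 libraries lay above every later library.

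The log2 fold change of miR-99b-3p against day 1 was -1.08 on day 60 (SE 0.40, limma adjusted p = 0.0935), -1.08 on day 120 (adjusted p = 0.117) and -0.87 on day 180 (adjusted p = 0.213). They were -0.75, -0.75 and -0.55 without replicate 2 of day 1. DESeq2 called the day-120 change, with an adjusted p of 0.0411.

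**Figure D2:**
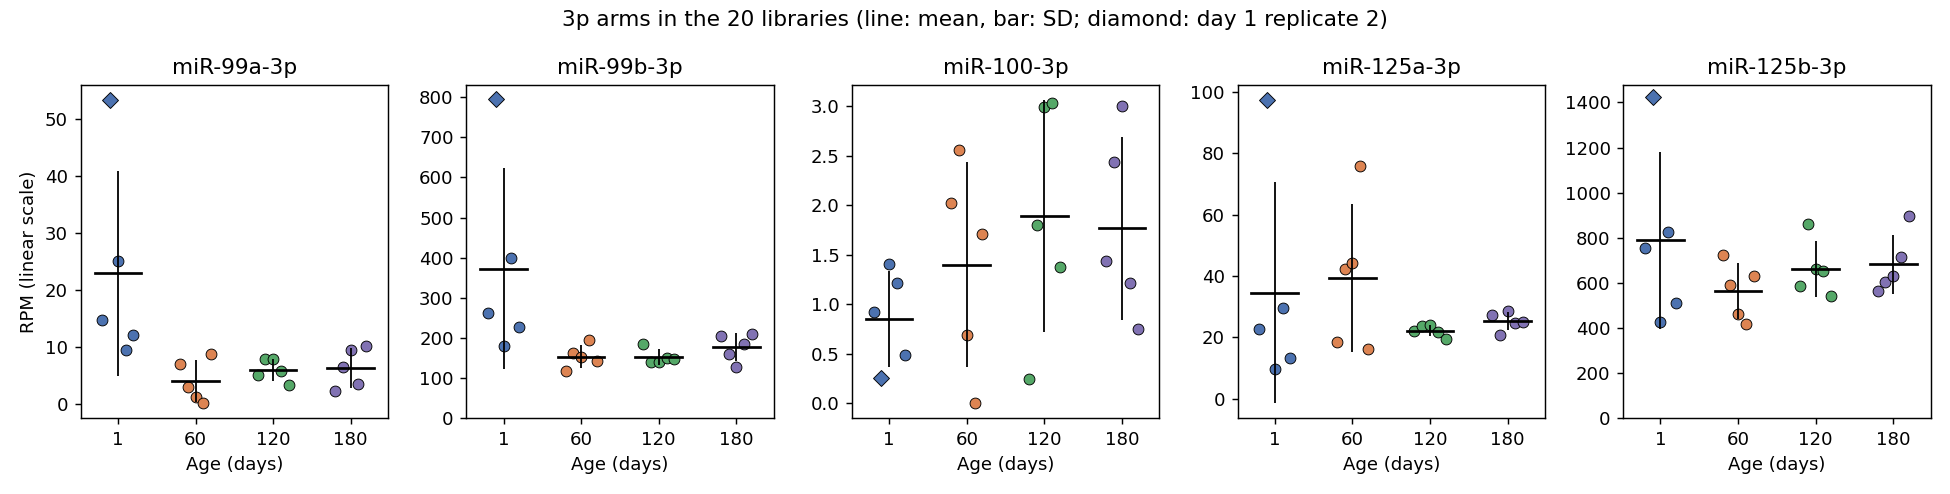
Levels of the 3p arms of the 5 names in RPM (linear scale, each panel with its own axis) against age in days; points are libraries, lines and bars are mean and SD of 5, and the diamond is replicate 2 of day 1. miR-99a-3p runs from 9.38 to 53.3 RPM on day 1 and from 0.160 to 8.71 RPM on day 60.

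The other 3p arms showed no called change at any age. miR-125b-3p ranged from 427 to 1426 RPM on day 1 and from 417 to 894 RPM over the later ages. miR-125a-3p ranged from 9.54 to 97.3 RPM on day 1 and from 16.2 to 75.7 RPM on day 60, and it was tightest on day 120 at 22.2 ± 1.87 RPM (SD, n = 5). miR-100-3p ranged from 0.249 to 1.40 RPM on day 1 and from 0 to 3.04 RPM later. In 6 of the 20 libraries it had 6 reads or fewer, so a change in it was hardly detectable at this depth.

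On day 60 the background was 3.86% of 414 miRNAs called against day 1, and 1 of the 10 members, miR-99a-3p, was called. On day 120 it was 3.38%, and on day 180 it was also 3.38%, and 0 of the 10 members were called by limma at either age. All 3 comparisons share the day-1 libraries, so their values are set side by side and are not independent. At an unadjusted p under 0.05, 2 of 10 members passed on day 60, 3 on day 120 and 2 on day 180, against 21%, 22.5% and 20.8% of all tested miRNAs. edgeR called 0 members on days 120 and 180, where it called 10.4% and 5.31% of miRNAs. DESeq2 called 2 members on day 120, against 18% of miRNAs, and 1 on day 180, against 14.8%. Members whose later libraries all lay below day 1 numbered 1 on day 60 (background 2.42%), 2 on day 120 (background 3.38%) and 0 on day 180 (background 2.9%). The F test called 0 of 10 members, against 1.93% of all tested, and 2 members had an unadjusted p under 0.05, miR-99a-3p and miR-99b-3p, against 16.9%. With edgeR and with DESeq2 the test over all ages called miR-99a-3p, against 9.42% and 21.8% of miRNAs.

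The median log2 fold change of the 10 members against day 1 was -0.27 on day 60, -0.14 on day 120 and -0.14 on day 180. Over all tested miRNAs it was -0.04, -0.12 and -0.25. Members below 0 numbered 7, 8 and 7 of 10, against 53.4%, 56.3% and 62.6% of all tested. These counts rest in part on replicate 2 of day 1. Without it miR-99b-5p was at 0.32, 0.20 and 0.41 on days 60, 120 and 180, and miR-125b-5p at 0.57, 0.57 and 0.38. miR-125a-5p was at 0.49 and 0.16 on days 120 and 180. All of these values were below 0 with that library, so fewer members were below 0 without it. The members' counts and medians without it are not given. Median-of-ratios scaling moved the median of all miRNAs by 0.11 on day 60 and 0.21 on day 180, and quantile scaling by 0.12 on day 120 and 0.24 on day 180. With median-of-ratios scaling 6, 6 and 4 of the 10 members were below 0, and with quantile scaling 8, 8 and 7 were. With edgeR and with DESeq2 the counts were 7, 8 and 5.

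**Figure D3:**
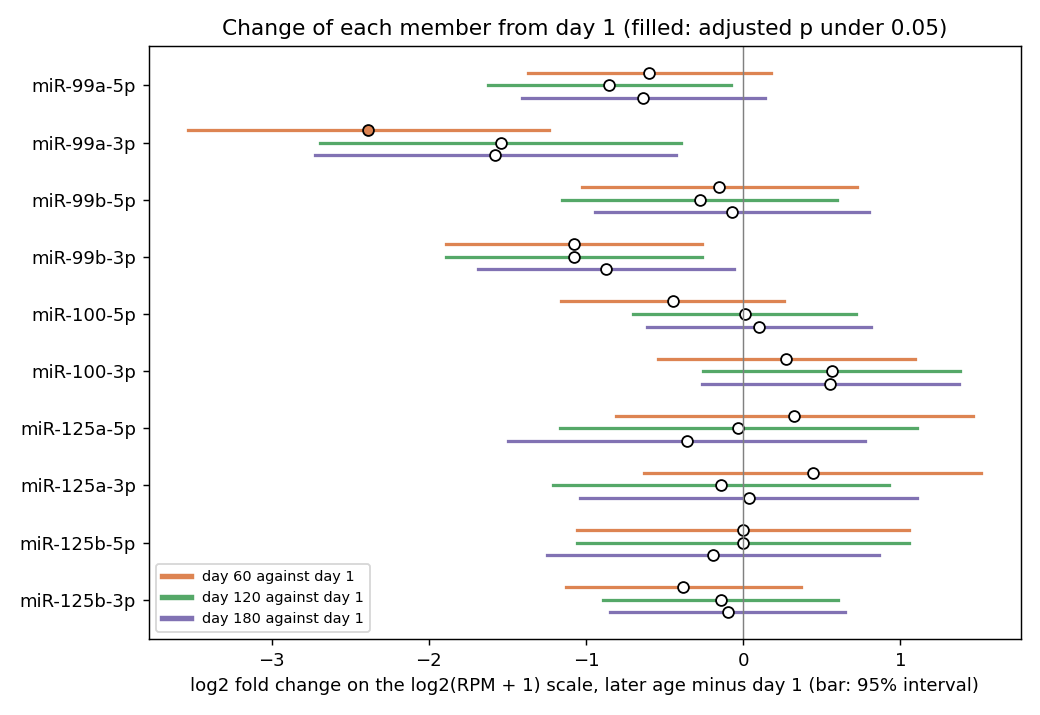
Log2 fold change of each of the 10 members from day 1 on the log2(RPM + 1) scale, with 95% intervals; colours give the later age, and a filled point has a limma adjusted p under 0.05. The single filled point is miR-99a-3p on day 60, at -2.38.

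For the abundant 5p arms the intervals show what sizes of change these libraries leave possible. miR-100-5p differed from day 1 by -0.45 on day 60 (95% interval -1.16 to 0.26), 0.01 on day 120 (-0.70 to 0.72) and 0.10 on day 180 (-0.61 to 0.81). miR-99a-5p differed by -0.60 on day 60 (-1.37 to 0.18), -0.85 on day 120 (-1.62 to -0.08) and -0.64 on day 180 (-1.41 to 0.14), with limma adjusted p-values of 0.383, 0.190 and 0.344. Quantile scaling, which called 9.42% of miRNAs on day 120, called the change of miR-99a-5p there, at -1.07 with an adjusted p of 0.0398. That change was -0.63 without replicate 2 of day 1 (limma adjusted p = 0.374).

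Of the 5p arms those of miR-125a and miR-125b had the widest intervals, with SEs of 0.55 and 0.51. miR-125b-5p differed from day 1 by -0.0022 on day 60, -0.0037 on day 120 and -0.19 on day 180, with a 95% interval of -1.06 to 1.05 on day 60. miR-125a-5p differed by 0.32 on day 60 (-0.81 to 1.46), -0.03 on day 120 (-1.17 to 1.11) and -0.36 on day 180 (-1.49 to 0.78). miR-99b-5p differed by -0.15, -0.28 and -0.07 on days 60, 120 and 180. Without replicate 2 of day 1 all these 5p arms of miR-99b, miR-125a and miR-125b lay above day 1 at every later age, by 0.16 to 0.84, and none was called. Among the later ages limma called 0 miRNAs, members included, in each of the 3 comparisons, and so did edgeR and DESeq2. At an unadjusted p under 0.05, 0 of 10 members and 13, 20 and 3 of all miRNAs (3.14%, 4.83% and 0.725%) passed for day 120 against 60, day 180 against 60 and day 180 against 120.

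The let-7 miRNAs of the same mammalian clusters (both arms of let-7a, let-7c and let-7e) accumulate in general as cells differentiate. Of their 6 rows, 2 rose between day 1 and day 60. These were both arms of let-7c, against 0.725% of all tested miRNAs called higher, and 0 of 6 were called on days 120 and 180. The median log2 fold change of the 6 rows against day 1 was 1.31 on day 60, 0.79 on day 120 and 0.67 on day 180. At an unadjusted p under 0.05, 4 of 6 passed on day 60, 2 on day 120 and 2 on day 180, against 21%, 22.5% and 20.8% of all tested miRNAs. let-7c-5p was at 6131, 5622, 3406, 5920 and 5885 RPM on day 1 and at 11035, 17868, 32947, 17426 and 5782 RPM on day 60. Of the day-60 libraries 4 lay above all of day 1. Its log2 fold change was 1.46 (SE 0.42, limma adjusted p = 0.0494), and it kept the call in 5 of 20 fits with a library left out. let-7c-3p changed by 1.63 (SE 0.44, limma adjusted p = 0.0399) and kept the call in 12 of 20. Both lost it without replicate 2 of day 1, with adjusted p-values of 0.0777 and 0.0710.

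Plain ratios of 2 miRNAs within a library do not depend on how that library was scaled. The log2 ratios tested here add 1 RPM to each level, so those with a low arm depend on it in part. For miR-99a-5p to miR-99a-3p the day-60 difference from day 1 was 0.94 to 2.43 with other pseudocounts. The ratio of miR-99a-5p to let-7c-5p, from neighbouring hairpins, was 3.15, 8.24, 6.12, 3.77 and 3.78 on day 1. It was 1.06, 1.32, 0.936, 0.714 and 1.93 on day 60. On day 120 it was 1.68, 1.18, 1.87, 1.56 and 1.33, and on day 180 it was 2.70, 1.91, 1.09, 2.10 and 3.05. Every later library was below every day-1 library.

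As log2 ratios the later ages differed from day 1 by -2.06 (SE 0.35), -1.64 (SE 0.28) and -1.20 (SE 0.37) for miR-99a-5p to let-7c-5p. Each had p = 0.00794 in a two-sided exact permutation test of 5 against 5 libraries, the smallest p that design allows. Over the 27 tests made (9 ratios at 3 ages against day 1) the adjusted p was 0.0714 by the exact test, so the ratio did not pass. Its 3 tests were already at the smallest p, so it could not have passed without low p-values in other ratios as well. Without replicate 2 of day 1 the differences were -1.86, -1.44 and -0.99, with adjusted p-values by the exact test of 0.0429, 0.0429 and 0.0714. The 9 ratios were chosen with earlier results of these data known.

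The arm ratio of miR-99b had higher means after day 1, and no difference passed. miR-99b-5p to miR-99b-3p averaged 36.8 ± 10.1, 69.3 ± 12.7, 65.7 ± 19.2 and 65.2 ± 21.6 (SD, n = 5) on days 1, 60, 120 and 180. The day-1 libraries ran from 29.7 to 54.2, the highest being replicate 2, and the day-60 libraries from 54.0 to 83.5, so that they overlapped by 1 library on each side. The log2 differences from day 1 were 0.92, 0.80 and 0.80, with adjusted p-values by the exact permutation test of 0.0857, 0.122 and 0.107. On days 60 and 180 the differences without replicate 2 of day 1 were 1.07 and 0.95, each with an adjusted p of 0.0429 by the exact test.

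The ratio of miR-100-5p to miR-99a-5p, which share a seed, averaged 2.04 ± 0.484, 2.42 ± 1.14, 3.72 ± 0.926 and 3.55 ± 1.33 (SD, n = 5) on days 1, 60, 120 and 180. Its log2 differences from day 1 were 0.15 (SE 0.33), 0.86 (SE 0.22) and 0.74 (SE 0.30), with adjusted p-values of 0.786, 0.0857 and 0.214 by the exact permutation test. In all, 0 of 27 ratio tests passed after adjustment. Leaving out replicate 2 of day 1, 5 passed: the 4 named above and miR-99b-5p to miR-99a-5p on day 120, at 0.83.

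**Figure D4:**
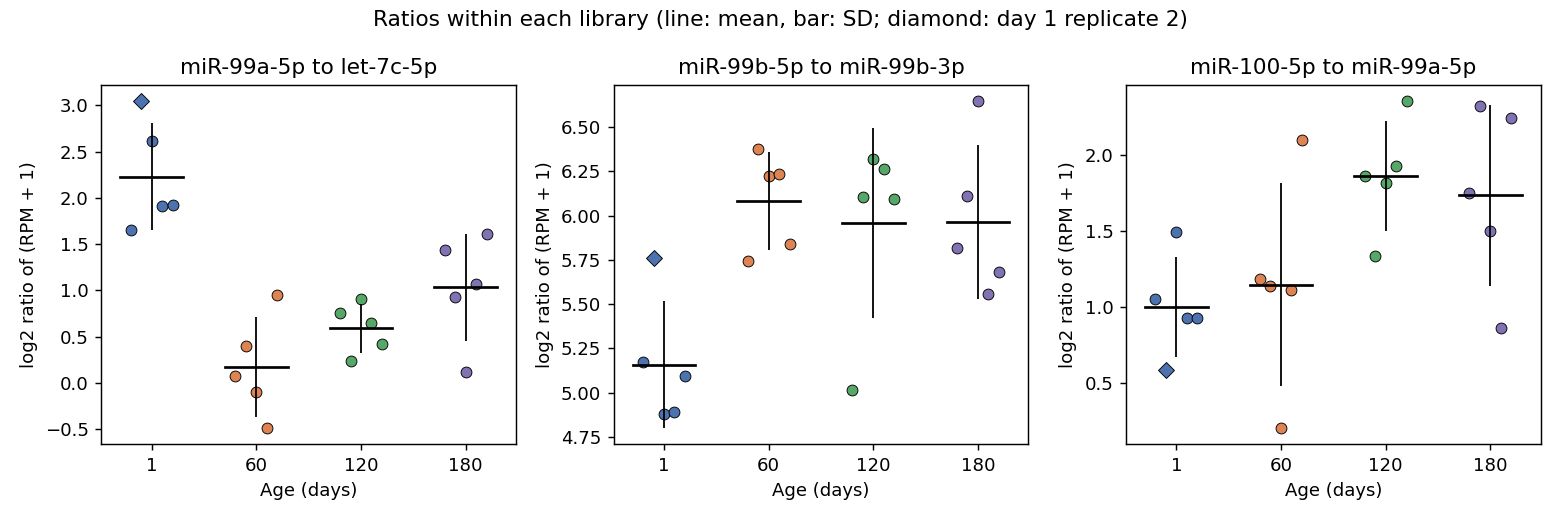
Log2 ratios of (RPM + 1) within each library against age in days, for miR-99a-5p to let-7c-5p, miR-99b-5p to miR-99b-3p and miR-100-5p to miR-99a-5p; lines and bars are mean and SD of 5 libraries, and the diamond is replicate 2 of day 1. In the left panel every day-1 library lies above every later library.

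Members of 1 seed did not always vary together. Across the 20 libraries the log2 levels of miR-125a-5p and miR-125b-5p had a Pearson r of 0.897 and a Spearman rho of 0.898, and r was 0.844 without the 2 libraries farthest from the median. miR-99a-5p and miR-100-5p, the most abundant pair, had r = 0.387 and rho = 0.310, and r = 0.126 without the 2 farthest libraries. miR-99b-5p followed miR-125a-5p, its cluster partner in mammals, with r = 0.792 and rho = 0.785, and r = 0.621 without the 2 farthest. The levels of miR-99a-5p and miR-99a-3p, which come from 1 hairpin, had r = 0.326 and rho = 0.185, and r = 0.004 without the 2 farthest. Without replicate 2 of day 1 alone, r was 0.860, 0.289, 0.707 and 0.023 for these pairs in the order given. The 2 farthest libraries were picked by the first-named miRNA of each pair, which narrows its range and can lower r. These coefficients are descriptions over 20 libraries that share their scaling totals. Near-identical miRNAs, such as miR-99a-5p and miR-100-5p, can also share reads.

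**Figure D5:**
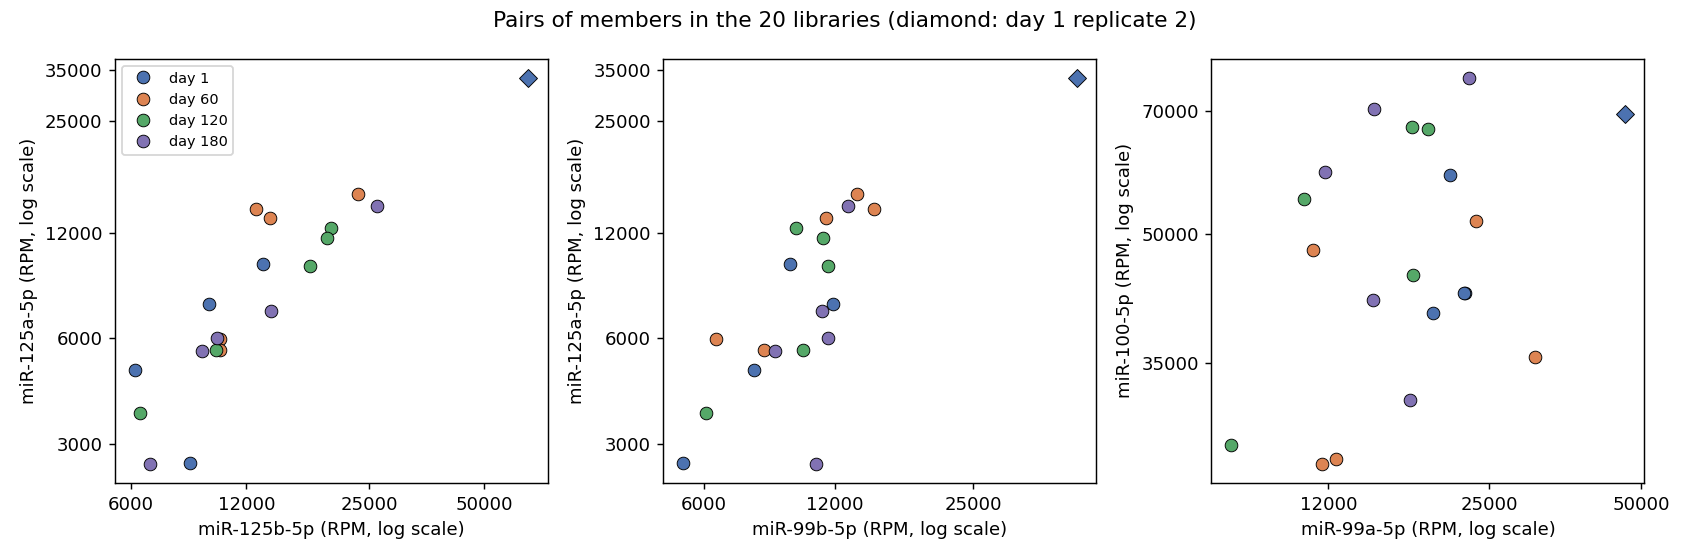
Levels of 3 pairs of members in RPM (log scales) in the 20 libraries, coloured by age, with replicate 2 of day 1 as a diamond. miR-125a-5p and miR-125b-5p lie along a line (Pearson r 0.897), and miR-99a-5p and miR-100-5p scatter (r 0.387).

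The named miRNAs outside the family whose log2 levels followed each member most closely differed between members. By Spearman rho over the 20 libraries, miR-191-3p was the nearest to both miR-125a-5p (0.917) and miR-125b-5p (0.943), and miR-30b-3p was the second nearest to both (0.901 and 0.905). miR-671-3p (0.872) and miR-423-5p (0.847) were the nearest to miR-99b-5p. miR-331-3p (0.853) and miR-324-5p (0.850) were the nearest to miR-99a-3p. The nearest to miR-100-5p was miR-532-5p (0.779) and the nearest to miR-99a-5p was miR-504 (0.663), so these 2 abundant members had the weakest nearest partners. When replicate 2 of day 1 was left out the same miRNA was nearest to all of these except miR-125a-5p, where let-7d-5p came first with 0.905.

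In replicate 2 of day 1 the members were raised by unequal amounts. Against the mean of the other 4 day-1 libraries miR-125b-5p was 6.93 times as high, miR-125a-5p 5.37 times, miR-99b-5p 5.01 times, miR-99a-5p 2.19 times and miR-100-5p 1.51 times. Among the 3p arms miR-125a-3p was 5.17 times as high and miR-100-3p was 0.247 times, at 1 read. let-7a-5p, let-7c-5p and let-7e-5p, clustered with members in mammals, were at 0.669, 1.05 and 0.782 times. The same library had the highest summed level of pituitary and epithelial markers (5 of 6 found), at 1432 RPM against a day-1 median of 156 RPM. It also had the highest sum of microglial and immune markers (4 of 6 found), at 1677 RPM against a day-1 median of 430 RPM, but this sum was mostly miR-150, at 1498 RPM. Of the other immune markers, miR-146a was at its lowest of the 20 libraries there (1.74 RPM, median 21.2), and miR-223-3p and miR-155-5p were at 3.24 and 174 RPM, against medians of 2.16 and 143 RPM. Of the epithelial markers, miR-200a, miR-200b and miR-200c were each at their highest there, at 147, 777 and 498 RPM, and miR-141 and miR-429 were not. miR-141 was at 1.2444 RPM, just under its highest of 1.24486 RPM. The neuronal miR-129-5p and the vessel marker miR-145-5p also peaked there, at 25887 and 4031 RPM, and the other neuronal and vessel markers found did not. Of all tested miRNAs, 35.5% were at their highest in this library. Its liver marker sum, 550 RPM, was the lowest of the 20 libraries, and none of the markers found was at 0 in it. That sum was mostly miR-192-5p, at its lowest there (438 RPM), and miR-122 and miR-194, at 24.1 and 87.6 RPM, were not at their lowest. The part of these cell types and of its low depth in the members' levels was not tested.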

How the data were processed

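Small RNA was sequenced from 20 goat hypothalami, 5 at each of 4 ages. Per the labels' protocols, RNA came from Trizol extraction and libraries from the NEBNext small RNA kit. Bowtie is named, without a version, per the submitters' processing notes. The sources used here do not give the build, the miRNA catalogue or the counter. The deposited table, made by the authors, holds RPM values, headed TPM per the file headers, with no division by length: 100% of values under 1000 reads were whole within 0.1 read, which returned the reads. A column holding the sum of the 20 libraries was used only to check the table.

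The rule found 10 rows, 3 more (miR-100-3p, miR-125a-3p and miR-125b-3p) than the 7 the design listed; all 10 were tested, and the 7 alone gave the same calls. limma 3.58.1 (R 4.3.3; mean-variance trend, two-sided) was fitted to log2(RPM + 1) of the 414 miRNAs at 1 RPM or more in at least 5 libraries, with 4 age means, 95% intervals and Benjamini-Hochberg adjustment at 0.05. Log2 fold changes understate the change of miRNAs near the floor. Ratios were compared by exact permutation of 252 arrangements. edgeR 4.0.16 (TMM) and DESeq2 1.42.0 were run on the recovered reads as alternatives; other alternatives were pseudocounts of 0.1 and 5, no filter or one at 10 RPM, 2 other scalings, no variance trend, only the 2 ages compared, a replicate block and each library left out. Scripts were tested on simulated data.

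The members, lists, ratios and tests were chosen with earlier results of these data known. The text names the members, their clustered let-7 and miR-10 relatives, and for 6 members the known miRNAs of highest Spearman rho. The 5 libraries of an age are biological replicates per the series' design text; no pair of the 40 within an age agreed within sampling noise (smallest chi-square per degree of freedom 357). Floors account for counting error alone, because reads copied by PCR do not count separate molecules.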

Additional observations from a re-analysis of the deposited data

Results flagged for a closer look

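In 7 of the 40 groups of 5 libraries (10 members at 4 ages) 1 library lay far from the others, by Dixon's ratio of its gap to the range above 0.71. Chance flags about 1 group in 20 only where values are normally spread, which was not tested here. The ratio was taken on RPM and not on the log2 values used in the other tests, and all 7 flagged libraries were the highest of their group. The groups are not independent, since 5 of the 7 are the same library, replicate 2 of day 1. In that library miR-125b-5p was at 65069 RPM against 13227 RPM in the next highest day-1 library. miR-99a-5p was at 46336 RPM against 22339 RPM, and miR-99b-5p was at 43164 RPM against 11848 RPM. miR-125a-5p was at 33242 RPM against 9758 RPM, and miR-125a-3p at 97.3 RPM against 29.6 RPM. The remaining 2 were miR-125b-5p in replicate 2 of day 60, at 23466 RPM against 13786 RPM, and miR-99b-3p in replicate 1 of day 120, at 186 RPM against 149 RPM.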

How the results depend on the processing

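The count of members called on day 60 against day 1 was 1 and fell to 0 with only the 2 ages compared; it ranged from 0 to 1 over fits with 1 library left out. On day 120 it went from 0 to 1 with median-of-ratios scaling, to 1 with quantile scaling and to 2 with DESeq2, and on day 180 from 0 to 1 with DESeq2. The F test counted 1 member with median-of-ratios scaling, quantile scaling, edgeR and DESeq2, and 0 to 1 with 1 library left out, the 1 being without replicate 4 of day 1 or replicate 5 of day 60. Ratios called went from 0 of 27 to 5 without replicate 2 of day 1, and ranged from 0 to 5 over the libraries left out. The cause of these differences was not tested. With the 3 further arm ratios, added after the data were seen, 0 of 36 were called. Other counts kept their value. Over all miRNAs the day-60 calls ran from 2 without replicate 4 of day 60 to 86 with DESeq2, against 16.

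Direction against day 1 changed for values near 0. With median-of-ratios scaling the log2 fold change was 0.17 for miR-99b-5p on day 180, 0.017 for miR-125a-5p on day 120, 0.10, 0.043 and 0.053 for miR-125b-5p on days 60, 120 and 180, 0.14 for miR-125b-3p on day 180 and 0.14 for let-7e-3p on day 180. With quantile scaling it was -0.29 and -0.24 for miR-100-5p on days 120 and 180, -0.090 for miR-125a-5p on day 60, 0.093 for miR-125a-3p on day 120, 0.14 for miR-125b-3p on day 180 and 0.40 for let-7e-3p on day 180. edgeR gave 0.011 for miR-99b-5p and 0.14 for miR-125b-3p on day 180, and -0.13 and -0.075 for let-7e-3p on days 60 and 120. DESeq2 gave 0.025 and 0.13 for the former 2 (miR-99b-5p and miR-125b-3p), and -0.092 and -0.081 for let-7e-3p. A pseudocount of 5 gave -0.014 for miR-125a-3p on day 180.

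With 1 library left out in turn the log2 fold changes that changed direction ranged as follows: miR-99b-5p -0.43 to 0.32 on day 60, -0.55 to 0.20 on day 120 and -0.35 to 0.41 on day 180, miR-100-5p -0.10 to 0.22 on day 120 and -0.032 to 0.29 on day 180, miR-125a-5p -0.073 to 0.84 on day 60, -0.43 to 0.49 on day 120 and -0.76 to 0.16 on day 180, miR-125a-3p -0.46 to 0.35 on day 120 and -0.28 to 0.52 on day 180, miR-125b-5p -0.28 to 0.57 on day 60, -0.29 to 0.57 on day 120 and -0.48 to 0.38 on day 180, miR-125b-3p -0.33 to 0.10 on day 120 and -0.29 to 0.15 on day 180, let-7e-3p -0.14 to 0.77 on day 60, -0.067 to 0.84 on day 120 and -0.36 to 0.55 on day 180, let-7e-5p -0.17 to 0.18 on day 180. The log2 ratio differences that did so ranged as follows: miR-100-5p to miR-99a-5p -0.088 to 0.39 on day 60, miR-125a-5p to miR-125b-5p -0.26 to 0.079 on day 120, miR-125a-5p to miR-99b-5p -0.53 to 0.016 on day 180, miR-125b-5p to miR-100-5p -0.24 to 0.43 on day 120 and -0.67 to 0.16 on day 180, miR-99b-5p to let-7e-5p -0.32 to 0.41 on day 180.

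Same-numbered libraries of different ages did not deviate together: 11 of 30 pairs had a correlation of their deviations over 0.1, with a median of 0.07. With the replicate number as a block (replicate block), 1 member was called on day 60, miR-99a-3p (-2.38, limma adjusted p = 0.0170), 0 members on days 120 and 180, in the later comparisons and in the F test, and 21 miRNAs in all on day 60 against 16. Depth limits miR-100-3p and, on day 60, miR-99a-3p, whose levels came close to the floor of 3 reads.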

Other observations

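Replicate 2 of day 1 divided the arms of let-7e, in mammals the cluster partner of miR-99b and miR-125a. let-7e-3p was at 332 RPM there, 9.29 times the mean of the other 4 day-1 libraries (35.8 ± 9.35 RPM, SD, n = 4) and 3.18 times the highest of the other 19 libraries. let-7e-5p in the same library was at 3230 RPM, 0.782 times the mean of the other 4. This library was singled out after its values were seen.

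The miR-10 relatives, whose seed resembles that of miR-99 and miR-100, lay far below the 5p arms of the members. miR-10a-5p and miR-10b-5p averaged 138 and 114 RPM, and their 3p arms averaged 0.345 and 0.129 RPM (n = 20). Of 4 rows, the 5p arms of miR-10a and miR-10b were tested. Neither was called by limma on day 60, 120 or 180 against day 1, and their median log2 fold change was 1.13, 0.96 and 0.39 at these ages. At an unadjusted p under 0.05, 1 of 2 passed on day 60, against 21% of all tested miRNAs, and 0 of 2 on days 120 and 180, against 22.5% and 20.8%.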
